A study of Mus musculus with 26 samples.

Results

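A set of 10 interferon-stimulated genes that encode antiviral effector proteins were followed in brown preadipocytes carrying different parts of the insulin receptor (IR). They were chosen by name, as the IFIT, IFITM, and MX genes and 3 further effectors: *Ifit1*, *Ifit2*, *Ifit3*, *Ifit3b*, *Ifitm3*, *Mx1*, *Mx2*, *Rsad2*, *Bst2*, and *Ifi44*. These are 10 of the 52962 genes with counts, and all 10 passed the filter on low counts that left 15402 genes for testing. The cells were preadipocytes from newborn mice with floxed IR and IGF1R alleles, immortalised with SV40 T antigen, in which Cre delivered by adenovirus had removed both receptors (DKO). The DKO line, which carried an empty vector, was compared with DKO cells given, by retrovirus and hygromycin selection, human IR, the kinase-dead mutant K1030R, ∆CT, which lacks the C-terminal tail, or JMO, which keeps only the juxtamembrane piece of the intracellular part. All 9 groups thus shared the loss of mouse IR and IGF1R, the immortalisation, and 6 h without serum. DKO cells were studied without insulin (basal), and the 4 receptor lines both basal and after 100 nM insulin for 15 min. Every group had 3 dishes except insulin-treated ∆CT cells, which had 2. Each receptor was studied in 1 line, so p-values measure the spread between dishes, and a property of a line cannot be told apart from an effect of its receptor.

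Type I interferons bind a cell-surface receptor whose kinases JAK1 and TYK2 activate transcription factors in the cytoplasm. These move to the nucleus and bind interferon-stimulated response elements (ISRE) in the promoters of antiviral genes. Fibroblast-like cells such as preadipocytes respond to interferon and keep a low level of these transcripts even in its absence. The IFIT proteins bind viral RNA, IFITM3 hinders the fusion of enveloped viruses in endosomes, the MX proteins are dynamin-like GTPases, viperin (*Rsad2*) makes a nucleotide that stops viral polymerases, and tetherin (*Bst2*) holds budding virions at the cell surface.

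The 4 IFIT genes lie next to each other on chromosome 19 (GRCm38), all on the plus strand, with *Ifit2* at chr19:34550694-34576419, *Ifit3* at chr19:34583531-34588731, *Ifit3b* at chr19:34607970-34613401, and *Ifit1* at chr19:34640871-34650009. *Mx1* (chr16:97447035-97462907) and *Mx2* (chr16:97535308-97560900) are neighbours on chromosome 16, where the annotation lists *Mx2* as a polymorphic pseudogene. *Ifitm3* is at chr7:141009586-141010770, *Rsad2* at chr12:26442746-26456452, *Bst2* at chr8:71534255-71537456, and *Ifi44* at chr3:151730922-151749960.

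The promoters of these genes were searched for the ISRE core. RefSeq promoter windows of 250 bases before to 50 bases after the transcript start (GRCm38.p6) were matched for 8 of the 10 genes, with 9 windows in all, and none was matched for *Mx1* or *Mx2*. The ISRE core was searched as GAAA, 2 bases of any kind, and GAAA, and as its reverse complement TTTC, 2 bases of any kind, and TTTC. It was found in 3.44% of all 32851 windows, and in 6 of the 9 windows of these genes. *Ifit1*, *Ifit3*, *Ifit3b*, *Bst2*, and *Ifitm3* had 2 matches each, *Rsad2* had 1, and *Ifi44* and both windows of *Ifit2* had none. The stretches below run 5′ to 3′ on the strand of the gene, with ISRE core matches in capitals, for *Ifit1* (chr19:34640769-34640828), *Ifit3* (chr19:34583364-34583423), *Ifit3b* (chr19:34607760-34607819), *Rsad2* (chr12:26456539-26456598, minus strand), *Bst2* (chr8:71537566-71537625, minus strand), and, as the stretch of *Ifit2* at the same distance as that of *Ifit1*, chr19:34550574-34550633.
Ifit1: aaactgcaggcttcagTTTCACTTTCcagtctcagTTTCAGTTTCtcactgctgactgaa
Ifit3: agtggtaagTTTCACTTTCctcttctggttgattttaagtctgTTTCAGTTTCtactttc
Ifit3b: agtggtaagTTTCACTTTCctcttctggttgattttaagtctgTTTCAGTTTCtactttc
Rsad2: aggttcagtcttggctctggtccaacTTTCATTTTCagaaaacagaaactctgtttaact
Bst2: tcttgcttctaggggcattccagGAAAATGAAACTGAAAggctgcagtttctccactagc
Ifit2: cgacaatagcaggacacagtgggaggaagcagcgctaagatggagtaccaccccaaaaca
The *Ifit3* and *Ifit3b* stretches are the same letters, and both *Ifit1* and this pair hold the words TTTCACTTTC and TTTCAGTTTC in the same order. In *Bst2* the pair of matches overlap. The matches of *Ifitm3* lie after the transcript start, from base 2 to base 28. The letters searched are absent from the windows of *Ifit2*, which says nothing of elements elsewhere. They are also absent from the window of *Ifi44*, whose levels, unlike those of *Ifit2*, followed those of the other genes below. Among the lists used below, the core was in 17 of 41 windows (41.5%) of other antiviral interferon-stimulated genes and 11 of 20 of interferon ligands. Whether the core relates to the levels was not tested. A second motif, TTCNNNGAA (GAS), was in 8.3% of all windows and had 1 match each in the windows of *Ifit2* (at bases -241 to -233), *Bst2*, and *Ifitm3*, overlapping an ISRE core match in the last pair.

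Library totals ran from 17228982 to 24694828 counts, and every level is given as CPM, the count scaled to library size. CPM are after TMM scaling, except for the levels and sums of cell type markers, which are without it. Mouse *Igf1r* was at 24.7 to 35.7 CPM in all libraries, and *Insr* at 22.3 to 24.8 CPM in DKO and 65.5 to 99.7 CPM in the receptor lines. Without a group that kept both receptors these levels do not check the deletion, and reads of a human receptor may be assigned to *Insr*. By qPCR and immunoblot, the study's authors report neither IR nor IGF1R in DKO cells. Of 12 brown preadipocyte markers, 8 passed the filter, among them *Pdgfra* (158 to 287 CPM) and *Col1a1* (3180 to 7540 CPM). *Dlk1*, *Ebf2*, *Zfp423*, and *Prdm16* did not. The markers summed to 4000 to 4310 CPM in DKO, 4580 to 4880 in JMO, and 6610 to 8410 in the other lines. Most of this sum was *Col1a1*, with 2872695 counts over all libraries, against 310801 for *Pdgfrb* as the next. It thus mainly follows 1 collagen gene and does not compare preadipocyte identity between lines. One library stood apart, replicate 3 of basal ∆CT cells: 0.94% of 10847 genes above 5 CPM were over 1.5-fold from the other dishes of its group, against 0.138% to 0.378% in the other libraries.

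*Ifit1*, the founding member of the IFIT family, had 545, 525, and 578 CPM in DKO and 585, 529, and 567 CPM in basal JMO cells. It had 335, 359, and 308 CPM in IR, 144, 153, and 132 CPM in K1030R, and 95.7, 97.5, and 179 CPM in ∆CT cells. DKO and JMO dishes overlapped, every IR dish lay below both, and every K1030R and ∆CT dish lay below IR. As a share of the DKO mean, *Ifit1* was at 102% in JMO and 60.7% in IR cells, and at 26% and 22.5% in the K1030R and ∆CT mutants. *Ifit3*, which stabilises IFIT1 on RNA in human cells, had the same order, with 405, 398, and 463 CPM in DKO, 408, 346, and 395 in JMO, 245, 245, and 196 in IR, 93.2, 102, and 88.6 in K1030R, and 51.2, 51.4, and 108 CPM in ∆CT cells. Its close copy *Ifit3b* had 163 to 191 CPM in DKO, 160 to 179 in JMO, 103 to 119 in IR, 45.6 to 54.7 in K1030R, and 26.4 to 52.4 CPM in ∆CT cells. In all 3 genes the highest ∆CT dish was replicate 3, and it alone of the ∆CT dishes lay within or above the K1030R range. Of the 31-base words in the *Ifit3* transcripts, 61.8% also occur in those of *Ifit3b*, so reads between these genes are uncertainly divided. In these bulk libraries fewer cells that express a gene and less RNA per cell cannot be told apart.

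**Figure D1:**
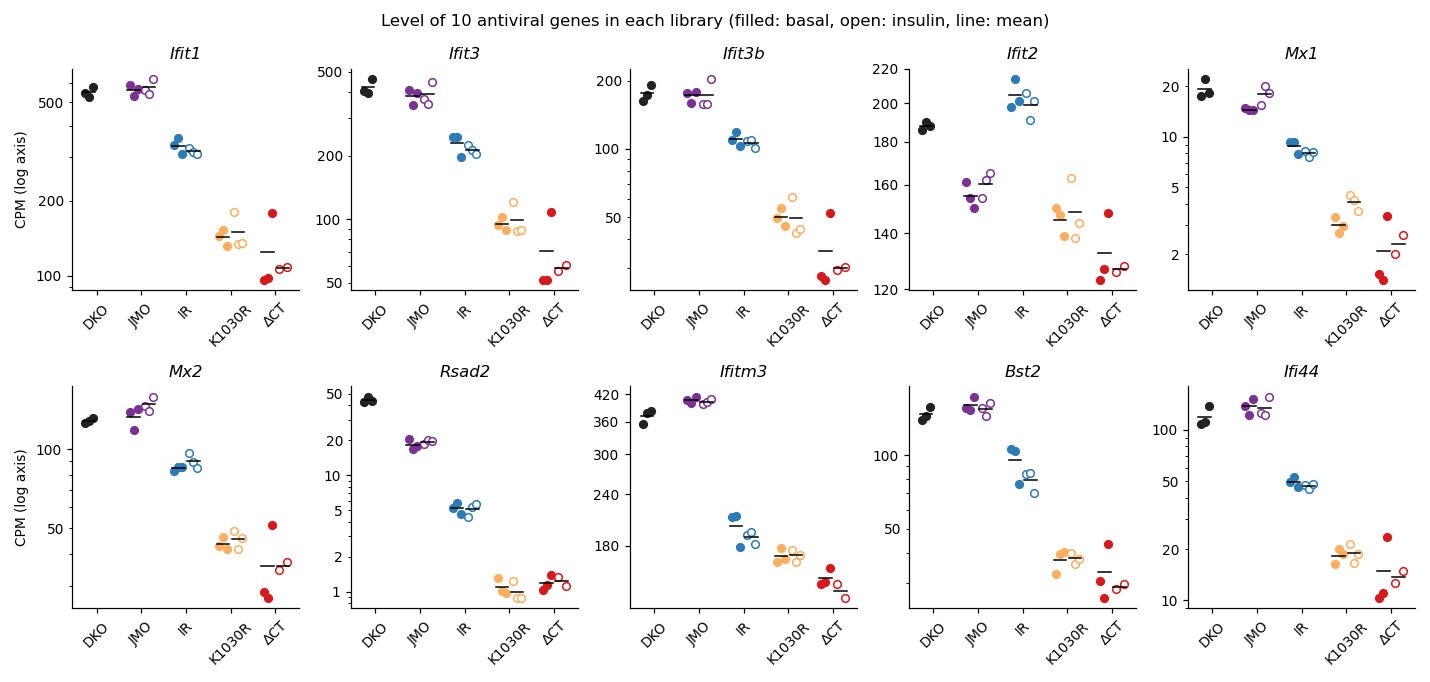
CPM (log axis, own range per gene) of the 10 genes in each library, by receptor line, with filled points for basal dishes, open points for insulin-treated dishes, and a line for the mean of each group (n = 3, and 2 for ∆CT with insulin). Every panel but that of *Ifit2* steps down from DKO and JMO to IR and then to K1030R and ∆CT. In the *Ifit2* panel the IR dishes, at 191 to 214 CPM, are the highest.

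*Ifit2*, which binds AU-rich RNA and is known for promoting apoptosis, did not take this order. It had 186, 190, and 188 CPM in DKO, 161, 154, and 150 CPM in JMO, and 198, 214, and 201 CPM in IR cells. In K1030R cells it had 150, 147, and 139 CPM, and in ∆CT cells 123, 127, and 148 CPM. IR, highest here, did not overlap with DKO, the lowest JMO and the highest K1030R dish were both at 150 CPM, and the K1030R and ∆CT dishes overlapped. The whole span was from 123 to 214 CPM, while *Ifit1* spanned 95.7 to 622 CPM. On the log2 scale *Ifit2* differed from DKO by 0.12 ± 0.06 (SE) in IR, -0.28 ± 0.06 in JMO, -0.37 ± 0.06 in K1030R, and -0.50 ± 0.06 in ∆CT cells. None of these passed the 1.5-fold minimum. Without a minimum fold, the adjusted p from edgeR's quasi-likelihood test was 0.0823 for IR, 0.000577 for JMO, 1.57e-05 for K1030R, and 1.62e-07 for ∆CT. *Ifit2* was thus lower in K1030R and ∆CT cells than in DKO, but also lower in JMO cells, where *Ifit1*, *Ifit3*, and *Ifit3b* did not pass the test (adjusted p from 0.629 to 0.921 in the same edgeR fit). No 31-base word of *Ifit2* occurs in transcripts of another gene.

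Set against its neighbours, *Ifit2* was relatively higher in IR, K1030R, and ∆CT cells. The ratio of the CPM of *Ifit2* to the summed CPM of *Ifit1*, *Ifit3*, and *Ifit3b* was 0.167, 0.173, and 0.153 in DKO and 0.137, 0.149, and 0.132 in basal JMO dishes. It was 0.288, 0.296, and 0.332 in IR, 0.524, 0.474, and 0.522 in K1030R, and 0.708, 0.723, and 0.437 in ∆CT dishes. The 9 basal dishes of IR, K1030R, and ∆CT did not overlap with the 6 of DKO and JMO, and their mean log2 ratio was 1.59 higher. Leaving out any 1 library gave 1.5 to 1.67. Because *Ifit2* was named with its pattern known, this is a description with no test.

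**Figure D2:**
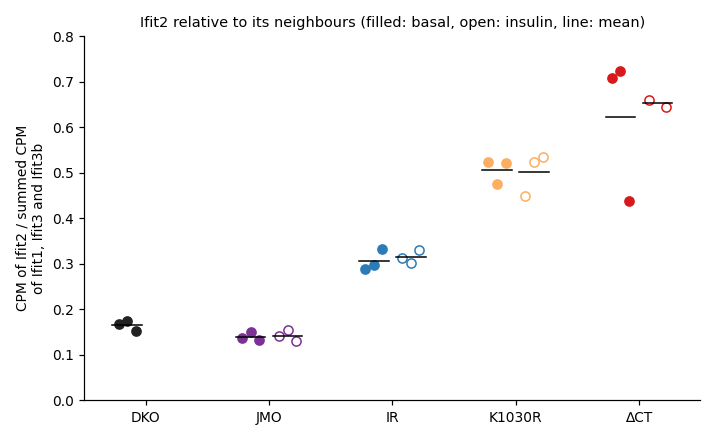
Ratio of the CPM of *Ifit2* to the summed CPM of *Ifit1*, *Ifit3*, and *Ifit3b* (vertical axis from 0) in each library, with filled points for basal and open points for insulin-treated dishes and a line for each group mean. DKO and JMO dishes lie between 0.13 and 0.173, IR dishes between 0.288 and 0.332, and K1030R and ∆CT dishes between 0.437 and 0.723.

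*Rsad2* had the largest fold between lines of the 10 genes. It had 42.6, 47.5, and 43.7 CPM in DKO, 20.6, 16.8, and 17.7 in JMO, and 5.21, 5.76, and 4.64 CPM in IR cells. In K1030R cells it had 1.3, 1.01, and 0.983 CPM and in ∆CT cells 1.04, 1.15, and 1.4 CPM. DKO, JMO, and IR dishes did not overlap with each other or with the last pair, and the K1030R and ∆CT dishes overlapped. This was the only one of the 10 to pass the 1.5-fold minimum in JMO against DKO cells, where it fell by 1.27 ± 0.08 (SE) on the log2 scale. It was also called lower in the other lines, at -3.10 ± 0.09 in IR cells, -5.35 ± 0.12 with K1030R, and -5.22 ± 0.12 with ∆CT. The K1030R and ∆CT levels are 40.7 and 37.2 times lower than in DKO and rest on few reads, with a lowest count of 18 in a library.

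*Mx1*, whose protein acts in the nucleus and which is defective in many laboratory strains, had the lowest level per length of the 10 genes in DKO cells. It had 17.6, 22.2, and 18.2 CPM in DKO, 14.8, 14.4, and 14.4 in JMO, and 9.27, 9.34, and 7.86 CPM in IR cells. In K1030R cells it had 3.32, 2.67, and 2.95 CPM and in ∆CT cells 1.52, 1.4, and 3.36 CPM. Every JMO dish lay below every DKO dish, though *Mx1* did not pass the 1.5-fold minimum there (-0.40 on the log2 scale, edgeR adjusted p = 0.0195 when no minimum was set). *Mx2*, whose protein stays in the cytoplasm, had 126 to 132 CPM in DKO, 118 to 143 in JMO, 82.4 to 85.9 in IR, 41.8 to 46.3 in K1030R, and 27 to 51.6 CPM in ∆CT cells. Its DKO and JMO dishes overlapped. *Mx1* and *Mx2* shared little sequence, 7.22% of the 31-base words of *Mx1* being found in *Mx2*.

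*Ifitm3* was the most abundant of the 10 genes per length. It had 356, 378, and 383 CPM in DKO, 406, 401, and 415 in JMO, 211, 212, and 179 in IR, 164, 178, and 167 in K1030R, and 145, 147, and 159 CPM in ∆CT cells. The main step lay between the DKO and JMO dishes on the one side and all others on the other, since *Ifitm3* was at 53.6% of DKO in IR cells, against 45.3% for K1030R and 40.2% for ∆CT. Of its 31-base words, 20.5% occur in other genes. *Bst2* had 140, 145, and 158 CPM in DKO, 156, 153, and 174 in JMO, 106, 104, and 76.4 in IR, 32.6, 39.6, and 40.1 in K1030R, and 30.7, 26, and 43.5 CPM in ∆CT cells. Here the IR dishes were well apart from both sides, at 64.5% of DKO against 25.3% for K1030R. *Ifi44*, a cytoplasmic protein induced by interferon, had 109, 111, and 139 CPM in DKO, 138, 123, and 151 in JMO, 49.2, 52.7, and 46 in IR, 16.4, 19.9, and 18.6 in K1030R, and 10.3, 11, and 23.4 CPM in ∆CT cells.

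Per kilobase of annotated exon, DKO levels ran from 549 CPM per kb for *Ifitm3*, through 242 for *Ifit3*, 207 for *Ifit1*, and 163 for *Bst2*, down to 10.3 for *Rsad2* and 5.11 CPM per kb for *Mx1*. In ∆CT cells *Ifitm3* was again highest, at 222 CPM per kb, and *Rsad2* lowest, at 0.276. *Ifit2* was sixth of the 10 on this scale in DKO cells, at 47.9 CPM per kb against 87.9 for *Ifit3b*. In ∆CT cells it was at 33.8 and *Ifit3b* at 17.7 CPM per kb, so the order of these neighbours was reversed.

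The comparisons with DKO ask what each receptor construct changed in receptor-null cells. A gene was called when edgeR's test against a 1.5-fold minimum gave it, over all 15402 genes, an adjusted p below 0.05. In IR cells 4 of the 10 genes were called lower and none higher, where 3.29% of all tested genes were called lower and 3.6% higher. The 4 were *Rsad2*, *Ifi44* (-1.29 ± 0.17), *Mx1* (-1.13 ± 0.14), and *Ifitm3* (-0.89 ± 0.05, log2 ± SE). *Ifit1* (-0.72 ± 0.17), *Ifit3* (-0.89 ± 0.20), *Ifit3b* (-0.67 ± 0.17), *Bst2* (-0.63 ± 0.13), and *Mx2* (-0.61 ± 0.14) did not pass the minimum fold, and passed without it, where 9 of the 10 were lower and none higher, against 24.1% and 25.6% of all genes.

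In K1030R cells 9 of the 10 were lower than in DKO, with 3.25% of all genes called lower, and in ∆CT cells 9 of the 10, with 3.91%. The exception in both was *Ifit2*. The median log2 fold change of the 10 was -0.80 in IR cells, -1.96 with K1030R, and -2.23 with ∆CT, where the median of all tested genes was 0.01 in each. In K1030R cells *Ifi44* was at -2.71 ± 0.20 (log2 ± SE), *Mx1* at -2.70 ± 0.17, *Ifit3* at -2.16 ± 0.21, *Ifit1* at -1.94 ± 0.17, and *Ifitm3* at -1.14 ± 0.05. In ∆CT cells *Mx1* was at -3.21 ± 0.18, *Ifi44* at -3.02 ± 0.20, *Ifit3* at -2.60 ± 0.21, *Ifit1* at -2.15 ± 0.18, and *Ifitm3* at -1.31 ± 0.05. In JMO cells 1 of the 10, *Rsad2*, was lower and none higher than in DKO, with 0.734% of all genes called lower and 1.38% higher. The other 9 were between -0.40 and 0.19 on the log2 scale. Without a minimum fold, *Ifit2* and *Mx1* were lower in JMO cells as well and *Ifitm3* was higher, where 17.4% of all genes were lower and 16.9% higher. In that test all 10, *Ifit2* included, were lower in K1030R cells, with 20.4% of all genes, and in ∆CT cells, with 22.9%. These comparisons share the DKO dishes and are not independent of each other.

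**Figure D3:**
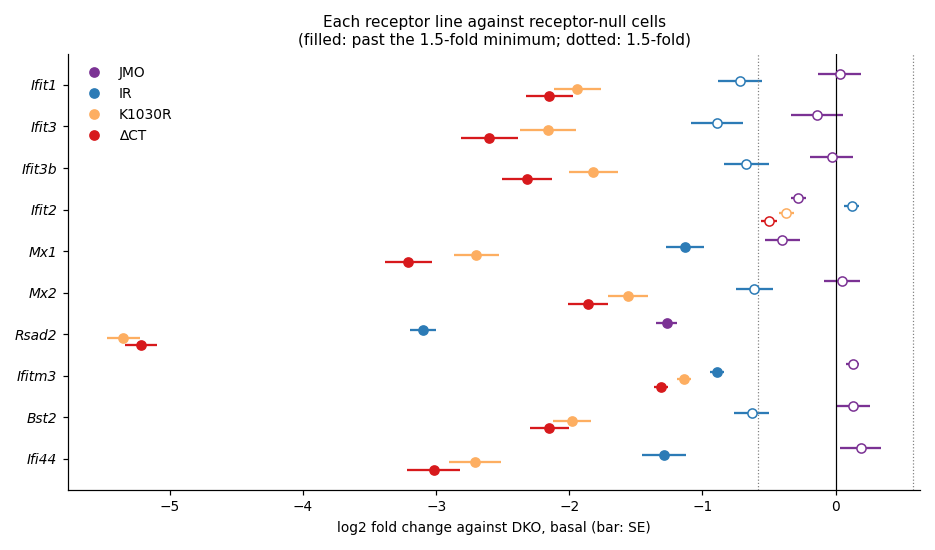
Log2 fold change (± SE) of each gene in basal JMO, IR, K1030R, and ∆CT cells against DKO cells (n = 3 dishes each), with filled points for genes past the 1.5-fold minimum and dotted lines at 1.5-fold. Only *Rsad2* is filled for JMO, and *Ifit2* is open in all 4 lines, between -0.50 and 0.12.

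The comparisons with JMO cells use a line that was given a receptor, but one that lacks the kinase domain and the tail. In IR cells 3 of the 10 were lower than in JMO, *Rsad2*, *Ifi44*, and *Ifitm3*, with 2.65% of all genes called lower. When no minimum was set 9 were lower, with 20.7% of all genes, and *Ifit2* was higher, with 21.8%. In K1030R cells 9 of 10 were lower, with 2.79% of all genes, and in ∆CT cells 9 of 10, with 3.42%. *Ifit2* was again the exception, at 0.40 in IR, -0.09 in K1030R, and -0.22 in ∆CT against JMO on the log2 scale (± 0.06 SE each). Its difference in IR cells, opposite in sign to those of the other 9, passed only when no minimum fold was set (edgeR adjusted p = 4.4e-06). Taking the mean of IR, K1030R, and ∆CT against the mean of DKO and JMO, 9 of 10 were lower, with 3.63% of all genes called lower, from -1.18 ± 0.03 (*Ifitm3*) to -3.92 ± 0.07 (*Rsad2*) on the log2 scale, and *Ifit2* was at -0.11 ± 0.04.

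The mutants were also compared with intact IR, which asks whether a construct without kinase activity or without the tail gave the level of the whole receptor. In K1030R cells 6 of the 10 were lower than in IR cells, where 0.857% of all genes were called lower. They were *Rsad2* (-2.25 ± 0.16), *Mx1* (-1.57 ± 0.18), *Ifi44* (-1.42 ± 0.21), *Bst2* (-1.35 ± 0.15), *Ifit3* (-1.27 ± 0.21), and *Ifit1* (-1.22 ± 0.17). This count was 3 without replicate 1 or without replicate 3 of basal K1030R cells. In ∆CT cells 8 of the 10 were lower than in IR cells, with 0.675% of all genes called lower. All but *Ifit2* (-0.62 ± 0.06) and *Ifitm3* (-0.42 ± 0.05) were called, from -1.25 ± 0.16 (*Mx2*) to -2.12 ± 0.16 (*Rsad2*). In a fit of only the ∆CT and IR basal dishes 1 was called, and the cause of this lower count was not tested. Without a minimum fold all 10 were lower than in IR cells in both mutants, with 16.3% of all genes lower in K1030R and 14.8% in ∆CT.

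Between ∆CT and K1030R cells none of the 10 was called by edgeR, where 0.039% of all genes were called in either direction. The differences were between -0.51 ± 0.23 (*Mx1*) and 0.13 ± 0.22 (*Rsad2*) on the log2 scale, and 4 of the 10 had an unadjusted p below 0.05. Without a minimum fold edgeR also called 0 (lowest adjusted p = 0.0606), with 3.43% of all genes called, and DESeq2 and limma TREAT called 0. Without replicate 3 of ∆CT the differences were -0.89 for *Ifit3*, -0.89 for *Ifit3b*, and -1.02 for *Mx1*, and again 0 were called.

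This replicate moved the 10 genes together. All 10 lay above the mean of the other ∆CT dishes, by 0.13 to 1.15 and with a median of 0.89 on the log2 scale. Of the 102 genes over 1.5-fold from the other dishes in that library, 72 were higher, and 30 were interferon pathway genes, counting 7 of the 10 effectors and the lists used below together. All 10 were also above the other dishes of the group in 3 further libraries, with medians of 0.25 in replicate 1 of K1030R with insulin, 0.15 in replicate 2 of basal IR, and 0.13 in replicate 3 of JMO with insulin. The counts against DKO, JMO, and IR cells were 9, 9, and 8 with this ∆CT dish and 9, 9, and 8 without it, and the median fold change against DKO was -2.60 on the log2 scale without it. What set the dish apart was not tested.

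**Figure D4:**
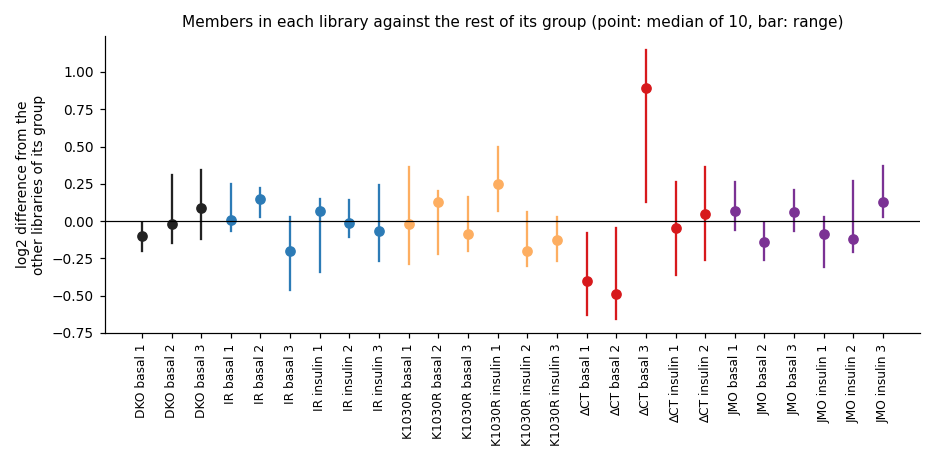
Log2 difference of the 10 genes in each library from the mean of the other libraries of its group, with a point for the median and a bar from the lowest to the highest gene. Replicate 3 of basal ∆CT cells stands at 0.89 with all 10 genes above 0, and no other library has a median above 0.25.

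After 15 min of insulin the 10 genes kept their order across lines. *Ifit1* had 328, 314, and 308 CPM in IR, 181, 134, and 135 in K1030R, 106 and 108 in ∆CT, and 558, 541, and 622 CPM in JMO cells with insulin. *Rsad2* had 4.34, 5.33, and 5.68 CPM in IR, 1.23, 0.888, and 0.878 in K1030R, 1.34 and 1.11 in ∆CT, and 18.6, 20.1, and 19.8 CPM in JMO cells. *Ifit2* had 206, 191, and 201 CPM in IR, 163, 138, and 144 in K1030R, 126 and 128 in ∆CT, and 154, 162, and 165 CPM in JMO cells. Against JMO with insulin, 5 of 10 were lower in IR, with 2.62% of all genes called lower, 9 in K1030R, with 3.04%, and 9 in ∆CT, with 3.17%. When no minimum was set 9 were lower in IR than in JMO, with 19.9% of all genes, and *Ifit2* was higher, with 20.3%. Against IR with insulin, 8 of 10 were lower in ∆CT, with 0.636% of all genes, and 3 in K1030R (*Rsad2*, *Ifi44*, and *Bst2*), with 1.04%. All 10 were lower in K1030R when no minimum was set, with 17.3% of all genes. With the minimum the K1030R count was 8 without replicate 3 of basal ∆CT cells, which enters it only through the shared estimate of spread, and 1 without replicate 1 of IR or replicate 2 or 3 of K1030R with insulin. The ∆CT count was 1 without replicate 1 and 3 without replicate 2 of ∆CT with insulin.

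Insulin itself moved none of the 10 past the test in any line. Against basal dishes of the same line, edgeR called 0 of 10 with the 1.5-fold minimum, where 0.221% of all genes were called in IR cells, 0.0% with K1030R, 0.214% with ∆CT, and 0.039% with JMO. It also called 0 without a minimum fold, where 1.87%, 0.156%, 1.01%, and 0.364% of all genes were called, and DESeq2 and limma TREAT called 0. At an unadjusted p below 0.05 there were 0 of 10 in IR and ∆CT, and 1 in K1030R and 1 in JMO, both *Mx1*. *Mx1* had 4.52, 4.21, and 3.61 CPM in K1030R with insulin, all above the basal dishes, with a log2 difference of 0.47 ± 0.21 (SE), and 15.4, 20.2, and 18.2 CPM in JMO with insulin, also above, with 0.30 ± 0.13. The adjusted p were 0.731 and 0.677 by edgeR's quasi-likelihood test. In IR cells the differences were from -0.26 ± 0.14 (*Bst2*) to 0.10 ± 0.14 (*Mx2*), and in ∆CT cells from -0.26 ± 0.25 (*Ifit3*) to 0.17 ± 0.27 (*Mx1*). The insulin effect in K1030R, ∆CT, or JMO cells minus that in IR cells was called for 0 of 10 by edgeR, with 1, 0, and 1 at an unadjusted p below 0.05, where 0.123%, 0.0%, and 0.117% of all genes were called.

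Other genes of the interferon pathway were taken from lists and counted in the mean of IR, K1030R, and ∆CT against the mean of DKO and JMO. With the minimum fold, 3.63% of all genes were called lower and 2.05% higher there. Interferon transcripts were barely present: of 21 ligand genes, 11 had no count in any library and only *Ifnz* passed the filter (-0.20 ± 0.239 SE). *Ifnb1* had 49 and *Ifna4* 31 counts over all 26 libraries. The ligand counts summed to 21 to 26 per library in DKO, 13 to 23 in JMO, and 2 to 17 in the other lines. *Ifnz* had 233 counts over all libraries, so these sums mainly follow that gene. Its basal mean was 0.806 CPM for DKO, 0.671 for K1030R, 0.433 for IR, 0.38 for JMO, and 0.376 for ∆CT, not the order of the effectors. *Ifnb1* and *Ifna4* were not compared between lines here. By qPCR, the study's authors report both to be lower where most of the intracellular domain is present. Of receptor and kinase genes, 0 of 8 were called by edgeR with the minimum fold, with a median of -0.20 (*Ifnar2*, a chain of the type I receptor, at -0.42 ± 0.0321 and *Jak1* at -0.14 ± 0.0222). Without it, 6 of the 8 were lower and *Ifnar1* was higher (0.10), all but *Tyk2* having an edgeR adjusted p below 0.05, where 52.3% of all genes did.

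Among the transcription factors of the pathway, *Irf7*, *Stat2*, and *Irf5* were called lower. *Irf7*, which drives interferon gene expression and is itself interferon-induced, fell by 1.96 ± 0.104 (SE) on the log2 scale in this comparison of means. Its level was 148 ± 21 CPM (SD, n = 3) in DKO, 140 ± 10.3 in JMO, 59.9 ± 4.57 in IR, 32.4 ± 2.22 in K1030R, and 25.8 ± 11 CPM in ∆CT dishes. *Stat2* fell by 1.07 ± 0.0716 and *Irf5* by 0.87 ± 0.0885. *Irf9* was at -0.62 ± 0.0638 and was not called. Of 7 brakes on interferon signalling, *Usp18*, which blocks the type I receptor, fell by 1.38 ± 0.0996, and *Ptpn6*, a phosphatase, rose by 1.28 ± 0.131. The basal level of *Ptpn6* was low throughout, at 0.598 to 0.852 CPM in DKO, 1.22 to 1.3 in JMO, and 2.16 to 2.65 CPM in the other 3 lines. The other 5 were not called.

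Of 42 other antiviral interferon-stimulated genes, 37 were lower and none higher, with 3.63% of all genes called lower. Their median was -1.09 against -1.63 for the 10 effectors and 0.01 for all genes. The largest falls were in *Oas1g*, *Zbp1*, *Oas2*, and *Trim30a*. *Oas1g* had 56.6 to 63.3 CPM in DKO, 38.7 to 50.8 in JMO, 10.2 to 11.1 in IR, 1.24 to 2.52 in K1030R, and 1.45 to 3.26 CPM in ∆CT cells. *Zbp1*, a sensor of Z-form nucleic acid, had 33.3 to 39.3 CPM in DKO and 0.617 to 2.38 CPM in ∆CT cells. Against DKO, 17 of the 42 were lower in IR cells, 35 with K1030R, 39 with ∆CT, and 2 with JMO. Of all genes, 3.29%, 3.25%, 3.91%, and 0.734% were called lower in these comparisons.

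**Figure D5:**
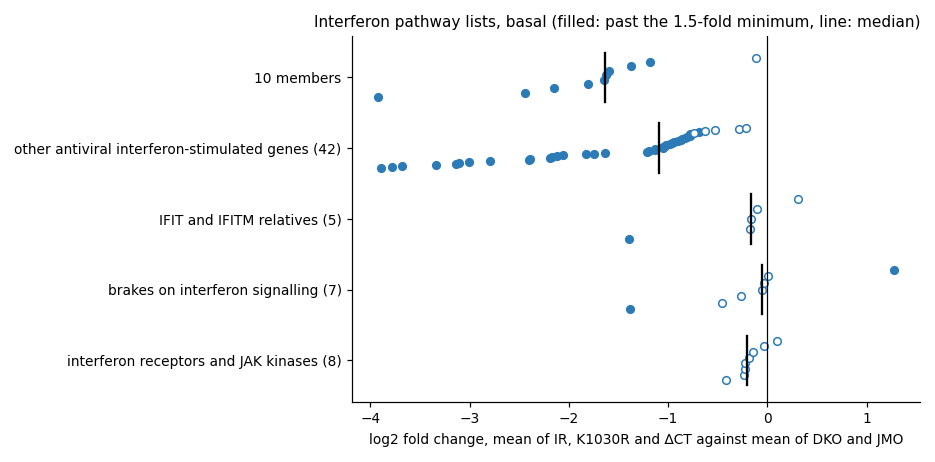
Log2 fold change of each tested gene in the mean of IR, K1030R, and ∆CT against the mean of DKO and JMO, basal, for the 10 effectors and 4 lists of interferon pathway genes (number tested in parentheses), with filled points past the 1.5-fold minimum and a line at the median. The median is -1.63 for the effectors, -1.09 for the other antiviral genes, and -0.20 for receptors and kinases.

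Close relatives did not all share the profile. Of 5 tested IFIT and IFITM relatives, *Ifit1bl2* fell by 1.39 ± 0.112 (SE), with 6.74 to 7.77 CPM in DKO, 7.7 to 9.42 in JMO, 3.9 to 5.05 in IR, 2.37 to 2.96 in K1030R, and 1.61 to 3.73 CPM in ∆CT cells. Of the 31-base words of *Ifit1*, 9.16% occur in it. *Ifit1bl1* was at -0.10 ± 0.114 and had its highest level in IR cells, at 3.84 to 5 CPM against 2.72 to 3.35 in DKO and 1.15 to 1.97 CPM in ∆CT cells. *Ifitm2*, which lies in the same gene cluster as *Ifitm3*, was at -0.17 ± 0.0258, with 170 to 178 CPM in DKO and 140 to 160 CPM in ∆CT cells. *Ifitm1* (0.31 ± 0.132) and *Ifitm5* (-0.16 ± 0.3) were also not called.

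Likeness of profile was described by Pearson's r over the 9 group means of log2 CPM, points that share libraries and lines. The mean profile was taken over all 10 genes, so each gene is part of it, which raises its r. Genes outside the 10 were picked as the highest of all tested genes, so their high r is a description with no test. Of the 10 genes, *Ifit2* had the lowest r with the mean profile, 0.698, then *Ifitm3* with 0.924 and *Rsad2* with 0.963, and the other 7 had 0.990 or more. The highest pair was *Ifit3* with *Ifit3b* (0.999), and the lowest *Ifit2* with *Ifitm3* (0.380). Outside the 10, the genes most like the mean profile were *Parp9* (0.9992), *Parp12* (0.9991), *Usp18* (0.9983), *Trim21* (0.9977), and *Rnf213* (0.9975), of which the first 4 are in the lists above. Those most like *Ifit2* were *Hexa* (0.974), *Apod* (0.972), *Lamp2* (0.9651), *Ppp1r2* (0.9629), and *Ppt1* (0.9566), none of them in those lists.

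Markers of immune cells, which can hold high levels of these transcripts, and of mature adipocytes were read beside the result. Of 8 macrophage and leukocyte markers, 4 passed the filter (*Cd68*, *Csf1r*, *Lyz2*, and *Cd14*), and the 8 summed to 30 to 33.2 CPM in DKO, 26 to 29.5 in JMO, and 17.2 to 21.1 in the other lines. *Cd14* was at 8.54 to 16.7 CPM, *Lyz2* at 4.0 to 12.1, *Cd68* at 1.51 to 3.65, and *Csf1r* at 0.241 to 1.05 CPM. Of those that did not pass, *Adgre1* had no count and *Tyrobp* had 1 count over 26 libraries. *Ptprc* was at most 0.397 CPM and *Itgam* at most 0.329 CPM. Of the 5 plasmacytoid dendritic cell markers, *Tcf4*, a factor of many cell types (211 to 282 CPM), and *Ccr9* (0.21 to 1.2 CPM) passed the filter, *Siglech* was at most 0.232 CPM, and *Cd209d* had no count. The 5 summed to 212 to 223 CPM in DKO, 219 to 227 in JMO, and 220 to 282 CPM in the other lines. Of 6 mature brown adipocyte markers only *Fabp4* passed the filter, and the 6 summed to 2.52 to 2.63 CPM in DKO, 4.29 to 4.97 in JMO, and 0.555 to 2.01 CPM in the other lines, with *Ucp1* at 1 count and *Lep* at 0 over all libraries. The sums of the leukocyte and mature adipocyte lists were higher in DKO and JMO than in the other lines, as were all effectors but *Ifit2*. They did not share the further order of the effectors. The leukocyte sums of IR, K1030R, and ∆CT cells overlapped, and the mature adipocyte sum was highest in JMO cells. The part of such cells in the result was not tested.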

How the data were processed

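RNA was captured with oligo-dT and sequenced as reverse-stranded single-end reads. According to the study's methods, the authors trimmed the reads with fastp, ran kallisto on the mouse transcriptome of Ensembl, and used tximport to reach gene level. The deposited table thus holds expected counts made by the authors, without scaling, of which 79.9% are exactly whole. Counts shared by near-identical transcripts are split by kallisto's estimate.

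Libraries were assigned to groups by their labels, and none was left out. After rounding to whole counts, a gene had to exceed 0.5 CPM in 4 or more libraries. TMM factors and a robust quasi-likelihood model of the 9 group means came from edgeR 4.0.16 (R 4.3.3), using all 26 libraries, of 17228982 to 24694828 counts. Genes were called with glmTreat at a minimum fold of 1.5 and a Benjamini-Hochberg adjusted p below 0.05 over all genes. Adjusted p of single genes are from the test with no minimum fold, and SE are the log2 fold change over the root of its F statistic. The biological coefficient of variation was 4.44%. DESeq2 1.42.0 and limma 3.58.1 were alternatives. The steps were run on simulated data with the same spread for every gene and changes placed in basal IR cells only. Genes with uneven dishes, as in basal ∆CT cells, were thus not covered.

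The 10 genes, the gene lists, and the markers were chosen with earlier results of these data known. Named beside the 10 genes are up to 4 genes per list with the largest fold change, the tested ligands and relatives, and the 5 genes most correlated with the mean profile and with *Ifit2*. *Jak1*, *Tyk2*, *Ifnar1*, *Irf9*, the cell type markers, and the receptor genes were named outside this rule. A result of the transcription factor list is not reported here, nor is the count over that list. Gene coordinates are from GENCODE M21, and promoters from RefSeq. The closing section gives the effect of the alternatives, which were other tools, scalings, filters and thresholds, fits of only the groups compared, a replicate block, *Ifit3* summed with *Ifit3b*, and each library left out.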

Additional observations from a re-analysis of the deposited data

How the results depend on the processing

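The counts of effectors called lower in K1030R and ∆CT cells against DKO or JMO, and in the mean of IR, K1030R, and ∆CT against the mean of DKO and JMO, were 9 under most alternatives, each library left out in turn included. They were 9 or 10 without a minimum fold, 8 of 9 features with *Ifit3* and *Ifit3b* summed, and, in fits of only the groups compared, 8 for ∆CT against DKO and 6 for ∆CT against JMO basal. Comparisons with IR moved most. Without a minimum fold the counts in either direction were 9 for IR against DKO, 4 for JMO against DKO, 10 for IR against JMO both basal and with insulin, and 10 for K1030R against IR in both states. At an adjusted p below 0.001 they were 2 for IR against DKO, 2 for K1030R against IR basal and 1 with insulin, 3 for IR against JMO with insulin, and 3 and 2 for ∆CT against IR basal and with insulin. With no filter on low counts they were 6 and 8 for IR against JMO basal and with insulin, and 8 for K1030R against IR with insulin. DESeq2 gave 1 for K1030R against IR with insulin. Fits of only the groups compared gave 5 there and 1 for ∆CT against IR basal. Without replicate 3 of basal ∆CT and replicate 1 of K1030R with insulin, left out together after seeing the data, K1030R against IR with insulin gave 8. Leaving out each library in turn gave 3 to 8 for K1030R against IR basal, 1 to 8 with insulin, and 1 to 8 for ∆CT against IR with insulin. The cause was not tested. With a library left out, the uncalled log2 difference of JMO from DKO ran from -0.0041 to 0.07 for *Ifit1*, below 0 without DKO replicate 2 (-0.0041) or JMO replicate 1 (-0.0019), and from -0.08 to 0.04 for *Ifit3b*, above 0 without DKO replicate 3 (0.04) or JMO replicate 2 (0.02).

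With the replicate number as a block, K1030R against IR with insulin gave 2 in place of 3 genes, and no other count changed. Libraries with the same number showed no greater likeness. Deviations of 100 equally numbered pairs had a median correlation of -0.00111, against -0.00162 for 200 others. On average, 7 of 26 libraries were closest to their own number. Whether equally numbered libraries were handled together is not given by the labels. Genes below about 1 CPM, such as *Rsad2* in K1030R cells, are limited by depth.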
